A study of Homo sapiens with 15 samples.

Results

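The comparison set SCC13-pUNO cells treated with LPS against untreated SCC13-pUNO cells. SCC13 is an established line of human cutaneous squamous cell carcinoma, and pUNO is the control plasmid without TLR4. Of the 15 arrays of the series, 8 were chosen by their labels: 4 of SCC13-pUNO cells kept for 24 h with 10 μg/ml LPS and 4 of untreated SCC13-pUNO cells. The other 7 arrays were SCC13-TLR4 cells, stably transfected with a TLR4-GFP plasmid, of which 3 were untreated and 4 were treated with LPS in the same way, and the methods describe sorting of this line for high GFP. All cells were stable transfectants selected with blasticidine, and the methods describe tetraplicate cultures of each transfected line, so replicates are cultures of 1 transfected line. The arrays were Agilent 1-colour 8x60K arrays with 50599 probes. Values are log2 intensities from which the array's own 75th percentile was subtracted, so that 0 is that percentile and a difference of 1 is a change of 2-fold.

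Lipopolysaccharide (LPS) is a component of the outer membrane of gram-negative bacteria. It is handed by LBP and CD14 to the complex of TLR4 with MD-2, the product of LY96, and the adaptors MYD88 and TICAM1 carry the signal to the kinases of NF-kB and of the ERK and JNK pathways and to interferon regulatory factors. In responsive cells NF-kB then drives cytokines such as TNF, IL6 and CXCL8 together with its own inhibitors NFKBIA and TNFAIP3. CASP4 binds LPS inside the cell, without TLR4, and cleaves GSDMD. The comparison asks how cells without transfected TLR4 stood after a day of LPS.

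No probe passed the test between LPS-treated and untreated SCC13-pUNO cells. Of 22652 probes tested with limma, 0 (0%) passed an adjusted p of 0.05, and the smallest adjusted p was 0.615. At an unadjusted p under 0.05 there were 873 probes, of which 720 (3.18% of those tested) were higher with LPS and 153 (0.675%) were lower. After quantile normalization of the arrays 389 were higher and 289 lower. Without the array labelled untreated replicate 2, described below, 0 probes (0%) passed and the smallest adjusted p was 0.215, with 657 higher (2.9%) and 161 lower (0.711%) at an unadjusted p under 0.05. The model took in all 15 arrays, with 4 group means and a term for the slide. Testing was limited to probes that the scanner software marked as well above background throughout at least 1 of the groups.

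At most of the probes tested, the measurements were precise enough to bound a change to 2-fold in either direction. The median half-width of the 95% interval was 0.28 on the log2 scale, and for 20227 probes (89.3%) the whole interval lay within a log2 difference of 1 in either direction. With the probes ranked by level and divided into 3 classes of equal size, this share was 97.6% in the bright class and 75.4% in the faint class. The fitted difference exceeded 1 at 74 probes, of which 68 were in the faint class, and 6 probes exceeded 2. The median difference over all probes was 0.014, that of the faint class was 0.063, or -0.024 after quantile normalization, and that of the bright class was 0.00033. Of the 720 probes higher at an unadjusted p under 0.05, 484 were in the faint class. The 75th percentile that scales the array was between 192 and 350 with LPS and between 291 and 374 without. Whether that lower range has a part in the faint probes was not tested.

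**Figure D1:**
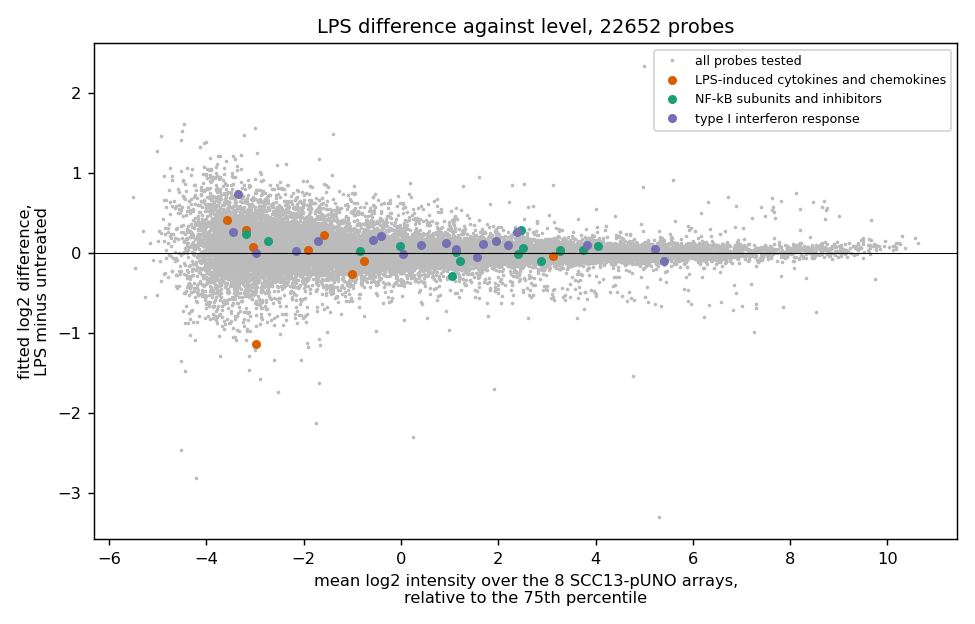
Fitted log2 difference between LPS-treated and untreated SCC13-pUNO cells (y axis) against the mean log2 intensity over the 8 arrays relative to the 75th percentile (x axis), 1 grey point for each of the 22652 probes tested, with 3 gene lists in colour. Points spread most at the faint end, and the coloured genes lie among the grey ones; no probe passed an adjusted p of 0.05.

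The labels of the 8 arrays were checked with TLR4. Its probe (A_24_P69538) read -3.80, 3.04, -6.40 and -5.72 on the arrays labelled untreated SCC13-pUNO replicates 1 to 4, and -6.19, -6.26, -6.09 and -4.74 on the arrays of LPS-treated cells. The array labelled untreated replicate 2 stood at the level of the SCC13-TLR4 arrays, which lay between 2.84 and 3.19, and against its label, whereas on the other 7 arrays the probe was well above background only on untreated replicate 1. The fitted difference of TLR4 was -2.45 (95% interval -5.84 to 0.93), and -0.52 without that array. The array labelled untreated replicate 2 also had ATF3 at 0.01, against -2.10 to -1.83 on the other untreated SCC13-pUNO arrays and -1.11 to 0.00 in untreated SCC13-TLR4 cells. Its CXCL1 was at -0.19 and its TFPI2 at -2.89, where the untreated SCC13-TLR4 arrays lay between -0.53 and -0.03 and between -3.15 and -2.48. Across the probes tested, however, it correlated with Pearson's r of 0.991 with untreated SCC13-pUNO replicates 1 and 3 on the same slide. With untreated SCC13-TLR4 replicate 1, the untreated SCC13-TLR4 array of that slide, r was 0.952. That SCC13-TLR4 array was itself unusual, at -6.52 for DHCR7 where untreated SCC13-TLR4 replicates 2 and 3 read 5.69 and 5.43. It also had 646 spots marked as outliers, the most of any array, so its r is a weak measure of likeness. On the other slide the array labelled untreated replicate 2 had r of 0.977 with untreated SCC13-pUNO replicate 4. Its r was at most 0.979 with the untreated SCC13-TLR4 arrays there, so that slide did not separate the lines. It was kept under its label, and values without it are given where they moved most.

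Slide and position were the other marks on the arrays. Slide 1 held 3 untreated and 2 LPS-treated SCC13-pUNO arrays, and slide 2 held 1 untreated and 2 LPS-treated arrays. Over the 8 arrays the slide took 51.9% of the variance, and LPS took 11.3%, or 6.83% after the slide. When nothing differs, 1 of 7 degrees of freedom takes 14.3%. With the slide at 51.9% less is left for the others, so 14.3% is no yardstick for the 6.83%. By the file headers, all 4 arrays of LPS-treated SCC13-pUNO cells lay at position 4 of a slide, untreated replicates 1, 3 and 4 lay at position 3, and the array labelled untreated replicate 2 lay at position 1, which otherwise held the untreated SCC13-TLR4 arrays only. Position and treatment cannot be told apart. Keratinocyte markers fitted the labelled cell, with KRT5 between 6.04 and 6.57 and SFN between 8.40 and 8.88 on the 8 arrays, and 8 of 9 markers were tested. Of the markers of other cell types, 0 of 6 for fibroblasts, 1 of 5 for melanocytes, 3 of 4 for endothelium and 3 of 6 for leukocytes were tested. The 3 tested leukocyte markers were well above background on all 8 arrays, with a median level of -2.05 without and -2.27 with LPS. The leukocyte marker PTPRC was fainter than that in both groups, with means of -3.06 without and -2.63 with LPS.

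The LPS receptor genes were mostly faint, and none of them passed the test. LY96, which encodes MD-2, was well above background on all 8 arrays, at -3.66, -1.79, -3.70 and -3.30 without and -3.28, -3.67, -3.36 and -3.57 with LPS. The highest of these 8 values belonged to the array labelled untreated replicate 2. The fitted difference of LY96 was -0.28 (95% interval -1.04 to 0.48), and 0.11 without that array. CD14, the co-receptor that loads LPS onto the complex, lay between -2.77 and -1.99 without and between -2.82 and -2.03 with LPS, a difference of 0.015 (95% interval -0.42 to 0.44). LBP, the serum protein that extracts LPS, was well above background on 0 of 8 arrays, as were TLR2, TLR7, TLR8 and TLR10.

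Among the other receptors, TLR5, which recognises flagellin, gave the clearest separation. It was at -2.21, -2.53, -1.94 and -2.00 in untreated cells and at -1.82, -1.74, -1.64 and -1.10 in LPS-treated cells. All 4 LPS-treated arrays lay above all 4 untreated arrays (exact permutation p = 0.0286, two-sided, which is the lowest value possible with groups of 4). The TLR5 values shown were not corrected for the slide. After that correction, groups did not overlap at 2.5% of all probes tested, both with and without the array labelled untreated replicate 2. Single genes with separated groups are thus common. The fitted difference was 0.63 (95% interval -0.06 to 1.31, limma adjusted p = 1.00), 0.45 on slide 1 and 0.63 on slide 2, and 0.50 without the array labelled untreated replicate 2. TLR3, a receptor of double-stranded RNA, lay between -1.54 and -1.28 on the 8 arrays with a difference of -0.015 (95% interval -0.17 to 0.14), and TLR1 had a difference of 0.037 (95% interval -0.21 to 0.28). The cytosolic LPS sensor CASP4 was bright, between 2.23 and 2.80, with a difference of 0.018 (95% interval -0.16 to 0.19), and that of its substrate GSDMD was 0.017 (95% interval -0.19 to 0.23). TLR6 was at -0.20 (95% interval -0.49 to 0.08) and LY86, the partner of CD180, at -0.44 (95% interval -1.43 to 0.54).

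Of the 18 genes on the list of the LPS receptor complex and Toll-like receptors, 10 were tested, 5 higher and 5 lower with LPS, and none passed at an adjusted or an unadjusted p of 0.05. Their median difference was 4.9e-05, beside 0.014 over all probes. The adaptors and kinases below the receptors were brighter. All 16 of the 22 listed that were tested had 95% intervals within a log2 difference of 1, with differences from -0.096 for IRAK1, a kinase of the MYD88 complex, to 0.26 for PELI1, a ubiquitin ligase of that complex, and a median of 0.016.

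**Figure D2:**
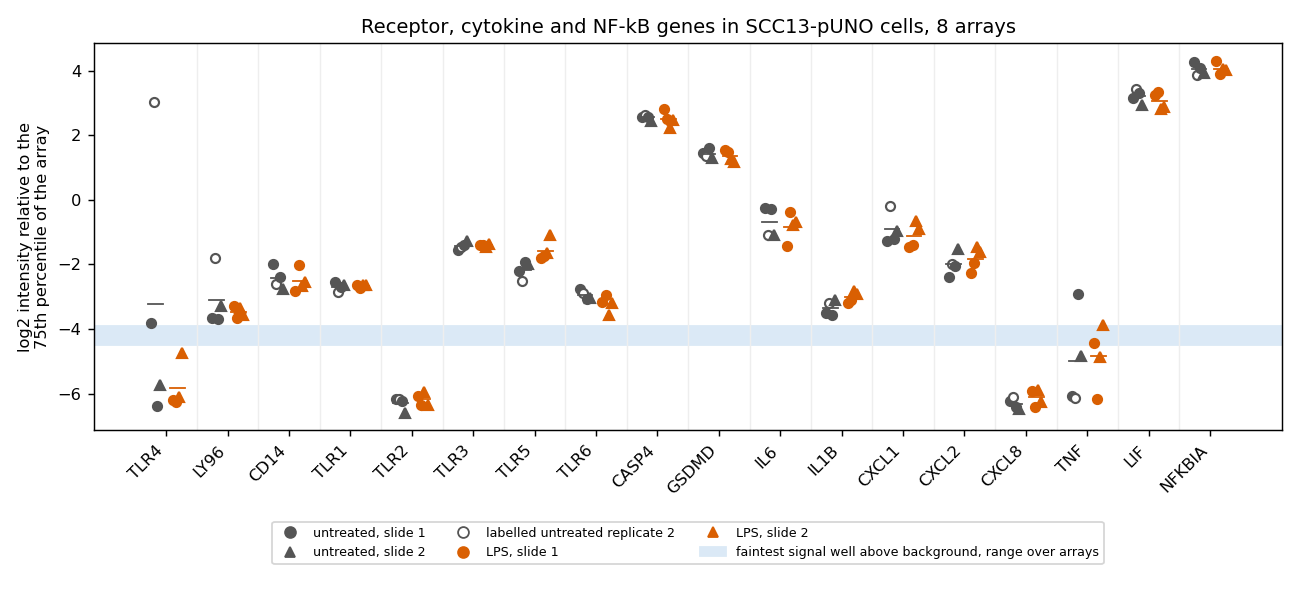
Log2 intensity minus the array's 75th percentile (y axis) for 18 genes (x axis) in SCC13-pUNO cells, grey without and orange with LPS, circles for slide 1 and triangles for slide 2, with bars at the group means and the range of the faintest signal well above background shaded. The open circle is the array labelled untreated replicate 2, at 3.04 for TLR4 where the other 7 arrays lie between -6.40 and -3.80.

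NF-kB itself was well measured in these cells, as 15 of the 17 listed subunits, kinases and inhibitors were tested and all 15 were well above background on the 8 arrays. NFKBIA, the inhibitor whose gene is among the first that NF-kB induces, was at 4.28, 3.87, 4.08 and 3.94 without and at 4.30, 3.88, 4.06 and 4.01 with LPS. The 2 groups overlapped throughout. The arrays cover 24 h only, so a rise that had ended by then would not show. The fitted change of NFKBIA was 1.07-fold, with a 95% interval from 0.848-fold to 1.34-fold, and its log2 difference was 0.014 without the array labelled untreated replicate 2. Other genes under NF-kB control gave values of 0.066 for NFKBIE, 0.036 for BCL3, 0.046 for TNIP1 and 0.24 for NFKBIZ, the last with an interval from -0.41 to 0.89. TNFAIP3, which removes ubiquitin from the pathway, was not well above background on any of the 8 arrays.

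RELB, the subunit of the alternative NF-kB pathway, had the largest difference of the list. It was at 2.64, 2.38, 2.47 and 2.02 without and at 2.66, 2.58, 2.75 and 2.30 with LPS, and the groups overlapped on 4 of 16 pairs of arrays. The difference was 0.29 (95% interval 0.01 to 0.58, limma adjusted p = 1.00), 0.13 on slide 1 and 0.51 on slide 2. The lowest difference was that of TNIP2, at -0.28 (95% interval -0.88 to 0.32). The median of the 15 genes was 0.036. All 15 intervals lay within a log2 difference of 1, and 1 gene, RELB, was higher at an unadjusted p under 0.05.

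Most cytokine and chemokine genes were not measurable in either state. Of the 25 listed, 16 were not tested, among them CXCL8, CXCL3, CXCL5, CCL2, CCL5, CCL20, CSF2, IL1A and IL36G, each well above background on 0 of 8 arrays. TNF was well above background on 1 untreated and 1 LPS-treated array, CXCL10 on 0 and 1, and CSF3 on 0 and 1. On the scale of these arrays the faintest signals well above background were between -4.49 and -3.89, so that a change that stayed below this level was not detectable.

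IL6, an early NF-kB cytokine, was measured on all 8 arrays, at -0.26, -1.10, -0.27 and -1.09 without and at -1.44, -0.39, -0.80 and -0.69 with LPS. High and low arrays occurred in both groups. The difference was -0.089 (95% interval -0.97 to 0.79, exact permutation p = 0.629), and -0.24 without the array labelled untreated replicate 2. CXCL1, a neutrophil chemokine, was at -1.26, -0.19, -1.21 and -0.96 without and at -1.45, -1.41, -0.67 and -0.90 with LPS. The highest value was that of the array labelled untreated replicate 2, and the difference moved from -0.25 (95% interval -0.76 to 0.26) to -0.010 without it. Its close relative CXCL2 lay between -2.40 and -1.53 without and between -2.27 and -1.47 with LPS, a change of 1.03-fold (95% interval 0.866 to 1.22).

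IL1B, the secreted interleukin 1, was at -3.52, -3.20, -3.57 and -3.11 without and at -3.21, -3.10, -2.82 and -2.93 with LPS. It was higher with LPS on 14 of 16 pairs of arrays, close to background on all of them. The difference was 0.29 (95% interval 0.04 to 0.54, limma adjusted p = 1.00, exact permutation p = 0.0857), and 0.35 without the array labelled untreated replicate 2. LIF, a cytokine of the IL6 family and the brightest of the list, lay between 2.92 and 3.43 without and between 2.80 and 3.33 with LPS, a change of 0.977-fold (95% interval 0.882 to 1.08). IL23A was at 0.23 (95% interval -0.14 to 0.60), or 0.095 without the array labelled untreated replicate 2, and IL1RN, the natural antagonist of interleukin 1, at 0.076 (95% interval -0.45 to 0.60). CSF1 was at -6.09 on LPS replicate 1 and lay between -2.69 and -1.80 on the other LPS-treated arrays, which gave a difference of -1.14 (95% interval -2.60 to 0.32). CXCL12 was faint, well above background on 2 untreated and 4 LPS-treated arrays, with a difference of 0.42 (95% interval -1.47 to 2.31). That of CXCL12 was 0.014 without the array labelled untreated replicate 2, 1.14 on slide 1 and -0.36 on slide 2. The 9 genes tested had a median difference of 0.041, or 0.014 without the array labelled untreated replicate 2. Of these genes 1, IL1B, was higher at an unadjusted p under 0.05, and 7 intervals lay within a log2 difference of 1.

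**Figure D3:**
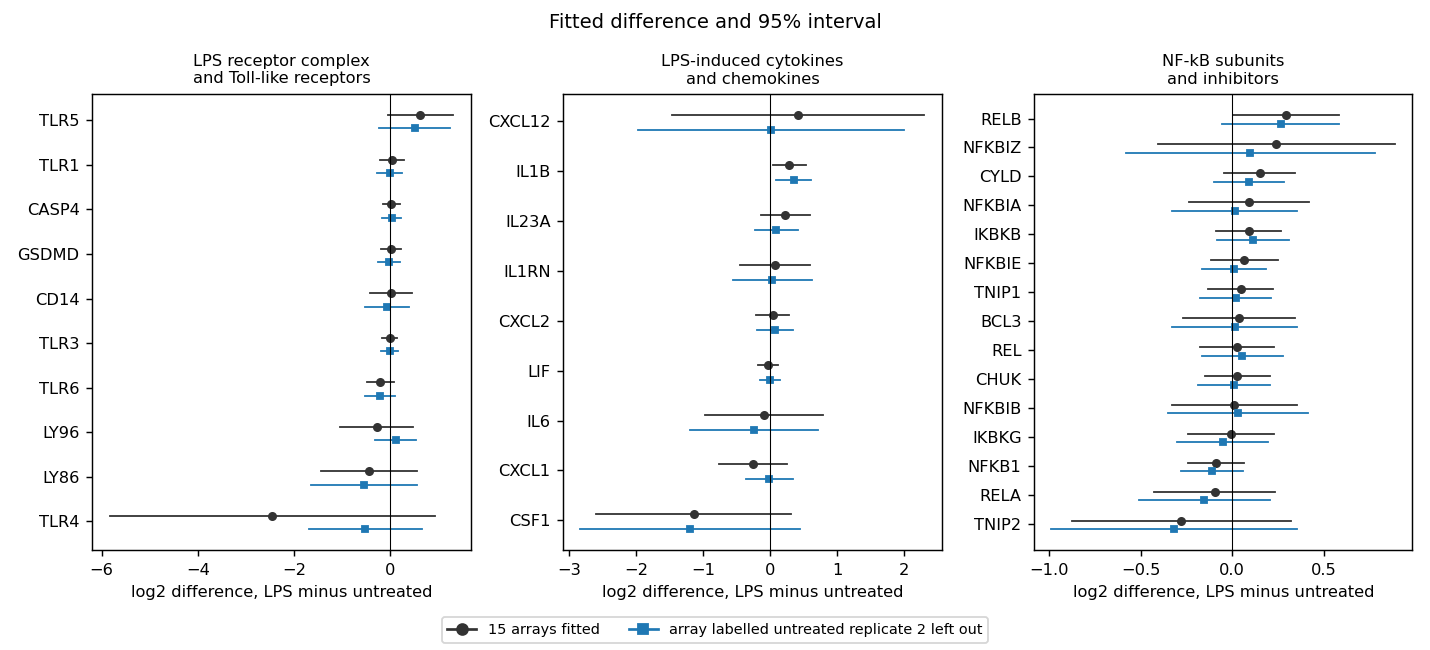
Fitted log2 difference between LPS-treated and untreated SCC13-pUNO cells (x axis) with its 95% interval for the tested genes (y axis) of 3 lists, black with all 15 arrays in the fit and blue without the array labelled untreated replicate 2. The intervals of CASP4, GSDMD, LIF and CXCL2 are narrow around 0, those of TLR4, CXCL12 and CSF1 are wide, and the scale of the x axis differs between panels.

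The promoters of 3 of these genes are shown because they carry the classical NF-kB site through which LPS acts in responsive cells, and because all 3 genes were measured on every array. The sequences are from RefSeq and span the annotated start on GRCh38.p14, on the strand of the gene, and capitals mark matches to the NF-kB consensus on either strand. They belong to NFKBIA (chr14:35404700-35404999, minus strand), CXCL1 (chr4:73869143-73869442, plus strand) and IL6 (chr7:22726950-22727249, plus strand).
NFKBIA: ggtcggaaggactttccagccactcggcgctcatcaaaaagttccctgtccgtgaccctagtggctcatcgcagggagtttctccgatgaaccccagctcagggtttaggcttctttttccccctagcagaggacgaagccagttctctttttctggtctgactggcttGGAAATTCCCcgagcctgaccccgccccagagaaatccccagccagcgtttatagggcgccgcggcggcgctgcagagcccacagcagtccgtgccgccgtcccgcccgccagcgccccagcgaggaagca
CXCL1: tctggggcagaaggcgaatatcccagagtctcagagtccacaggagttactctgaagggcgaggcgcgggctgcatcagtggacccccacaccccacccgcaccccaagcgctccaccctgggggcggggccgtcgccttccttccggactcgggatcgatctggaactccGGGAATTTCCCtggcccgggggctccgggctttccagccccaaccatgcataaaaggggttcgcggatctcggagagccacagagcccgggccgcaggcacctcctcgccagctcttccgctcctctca
IL6: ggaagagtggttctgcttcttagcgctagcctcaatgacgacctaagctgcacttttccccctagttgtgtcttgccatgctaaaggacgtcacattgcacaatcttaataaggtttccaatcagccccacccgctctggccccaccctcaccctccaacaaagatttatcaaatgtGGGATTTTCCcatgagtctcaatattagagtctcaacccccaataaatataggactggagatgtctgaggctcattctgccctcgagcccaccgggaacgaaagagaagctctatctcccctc
The capitals in CXCL1 are 2 overlapping matches, 1 on each strand. The log2 differences beside these sites were 0.091 for NFKBIA, -0.25 for CXCL1 and -0.089 for IL6. Of 35116 promoters in the table, 11.3% held a match. A promoter was listed for 28 of the tested NF-kB, cytokine and target genes, and 14 of them had a match, beside 17.1% of all tested genes with a promoter, with differences from -0.25 to 0.24 and a median of 0.038. Over all 10262 tested genes with a promoter, the median difference was 0.0076 for the 1755 genes with a match and 0.0034 for the 8507 without. A match is a stretch of letters and does not show that NF-kB binds there in these cells.

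Other genes that NF-kB induces stood at similar levels in both states. SOD2, the mitochondrial superoxide dismutase, lay between 2.57 and 2.92 without and between 2.36 and 2.92 with LPS, a difference of -0.056 (95% interval -0.23 to 0.12). IER3, an early survival gene, was at -0.13 (95% interval -0.42 to 0.16) and was the lowest of the list. C3, the central complement component, was the highest, at -0.49, -0.13, -0.20 and -0.54 without and -0.36, 0.20, -0.28 and -0.04 with LPS. The difference of C3 was 0.29 (95% interval 0.01 to 0.58, limma adjusted p = 1.00), with overlapping groups. The 12 tested genes of the 20 listed had a median of 0.0051, and all 12 intervals lay within a log2 difference of 1. ICAM1, PTGS2, TRAF1 and CFB were well above background on 0 of 8 arrays. BIRC3 was so on 1 untreated and 3 LPS-treated arrays, at -4.76, -4.77, -4.88 and -3.89 without and -3.81, -4.19, -3.24 and -3.87 with LPS, and was not tested.

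Of 13 antimicrobial peptides and antiproteases, which keratinocytes make in inflamed skin, 3 were tested. DEFB4A, the inducible beta-defensin 2, lay between -3.52 and -2.48 without and between -2.92 and -2.43 with LPS, a difference of 0.44 (95% interval -0.12 to 1.01), which was 0.54 on slide 1 and 0.013 on slide 2. SLPI was at -0.12 (95% interval -0.63 to 0.38) and HAMP at -0.23 (95% interval -1.03 to 0.58). S100A7, S100A8, S100A9, LCN2 and CAMP were well above background on no array of the 8.

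Interferon-stimulated genes, the readout of the TICAM1 branch, were mostly a little higher with LPS and none passed the test. Of 19 tested, 16 were higher and 3 lower, with a median of 0.11, or 0.059 without the array labelled untreated replicate 2, and none had an unadjusted p under 0.05. Over all probes tested 54.8% were higher, with a median of 0.014, or 0.013 without that array. RSAD2, which encodes viperin, had the largest difference of the list. It was at -2.66, -3.67, -3.92 and -4.14 without and at -1.94, -3.84, -3.39 and -3.18 with LPS, with replicate 1 highest in both groups. The difference was 0.74 (95% interval -0.16 to 1.64, exact permutation p = 0.371). IFIT1, a brighter member, was at 2.85, 2.15, 2.54 and 1.86 without and 3.36, 2.22, 1.91 and 2.15 with LPS, a difference of 0.26 (95% interval -0.33 to 0.85). BST2, a surface protein that tethers virions, was the lowest at -0.10 (95% interval -0.27 to 0.07).

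The early-response genes of the ERK and JNK pathways were divided. Of 21 tested, 10 were higher and 11 lower with a median of -0.020, which became 14 higher and a median of 0.056 without the array labelled untreated replicate 2. FOS, a subunit of AP-1, had the largest difference, at -3.81, -2.24, -2.43 and -2.61 without and -2.01, -1.08, -2.66 and -1.89 with LPS. The groups overlapped on 3 of 16 pairs. The difference was 0.86 (95% interval 0.01 to 1.71, limma adjusted p = 1.00), 1.28 on slide 1 and 0.34 on slide 2. ATF3, a stress-induced factor of the ATF family, was at -1.97, 0.01, -1.83 and -2.10 without and -1.38, -1.81, -2.46 and -1.58 with LPS. Its difference was -0.35 (95% interval -1.37 to 0.67), and 0.12 without the array labelled untreated replicate 2, and its other 2 tested probes gave 0.13 and 0.56. EGR1 was at 0.13 (95% interval -0.45 to 0.72), DUSP6 at 0.17 (95% interval -0.35 to 0.69) and MYC at -0.049 (95% interval -0.33 to 0.23). For protein, the paper reports that ERK and JNK were phosphorylated in both lines within minutes of LPS, a time the arrays did not cover. It reports a rise of ATF3 protein in both lines within minutes as well. Its ELISA of secreted IL-6 included 24 h, the time of the arrays, and it describes LPS-inducible secretion for SCC13-TLR4 cells.

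None of the growth and cell identity genes passed the test. All 26 proliferation genes were tested with differences between -0.15, for MCM6 of the replication helicase, and 0.11, for E2F1, and all 26 intervals lay within a log2 difference of 1. MKI67 lay between 3.24 and 3.71 without and between 3.07 and 3.76 with LPS, a difference of 0.098 (95% interval -0.18 to 0.38). Of the 16 basal keratinocyte genes, KRT14 had the lowest difference, -0.48 (95% interval -1.07 to 0.11), with the array labelled untreated replicate 2 at 3.91 and the other untreated arrays between 2.07 and 2.84, and it was -0.19 without that array. TP63, the master factor of the basal layer, was at 0.092 (95% interval -0.21 to 0.39). In the differentiation list 12 of 24 genes were tested, among them the cornified envelope precursors SPRR1A, at 0.06, -0.02, 0.02 and 0.55 without and 0.16, 0.59, 0.55 and 1.30 with LPS, and SPRR1B, well above background on 2 untreated and 4 LPS-treated arrays, at -3.33, -4.11, -3.93 and -3.65 without and -3.21, -3.62, -3.13 and -3.11 with LPS. Both were higher with LPS on 15 of 16 pairs (exact permutation p = 0.0571 for each). Their fitted differences were 0.44 (95% interval -0.05 to 0.92) and 0.49 (95% interval 0.09 to 0.88), each with a limma adjusted p of 1.00. Of the groups compared, only the LPS-treated one was well above background throughout at SPRR1B, so its values are a description. SBSN, another product of the upper layers, was the lowest of that list at -0.35 (95% interval -0.82 to 0.12).

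Of the migration and mesenchymal genes, 15 of 23 were tested with a median of -0.037, from -0.17 for the membrane metalloprotease MMP14 to 0.17 for the protease inhibitor TFPI2. TFPI2 lay at -1.61, -2.89, -1.67 and -1.52 without and -1.73, -1.84, -1.53 and -1.92 with LPS, and its difference was -0.14 without the array labelled untreated replicate 2. CDH13, the cadherin without a cytoplasmic tail, was at -0.059 (95% interval -0.41 to 0.29). TFPI was well above background only on the array labelled untreated replicate 2, at -3.36, and IL6R on none of the 8.

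The cholesterol and fatty acid synthesis genes leaned to the higher side, with 19 of 21 tested genes higher, a median of 0.13 with and without the array labelled untreated replicate 2, and 0 past the threshold. The corresponding medians over all probes were 0.014 and 0.013. STARD4, a sterol carrier protein, was at -1.22, -1.09, -1.32 and -1.19 without and -0.87, -1.05, -0.95 and -0.83 with LPS. Every LPS-treated array lay above every untreated one (exact permutation p = 0.0286), and the change was 1.22-fold (95% interval 1.02 to 1.45, limma adjusted p = 1.00). The STARD4 values shown were not corrected for the slide. After such correction 2.5% of all probes tested had groups that did not overlap, with and without the array labelled untreated replicate 2. FASN, the fatty acid synthase, changed 1.21-fold (95% interval 1.03 to 1.42) and HMGCS1, an early enzyme of the mevalonate pathway, 1.19-fold (95% interval 1.01 to 1.40), both with overlapping groups and a limma adjusted p of 1.00. INSIG1, which holds SREBP in the membrane, had the largest difference, 0.39 (95% interval -0.23 to 1.00), at 0.13 on slide 1 and 0.65 on slide 2. The lowest fitted value, -0.44 for DHCR7, came with an interval from -4.58 to 3.70, since its probe read -6.52 on 1 untreated SCC13-TLR4 array of the fit and between 5.43 and 6.29 on the other 14 arrays. Fitted on SCC13-pUNO arrays only, DHCR7 was at 0.16 (95% interval -0.18 to 0.50).

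**Figure D4:**
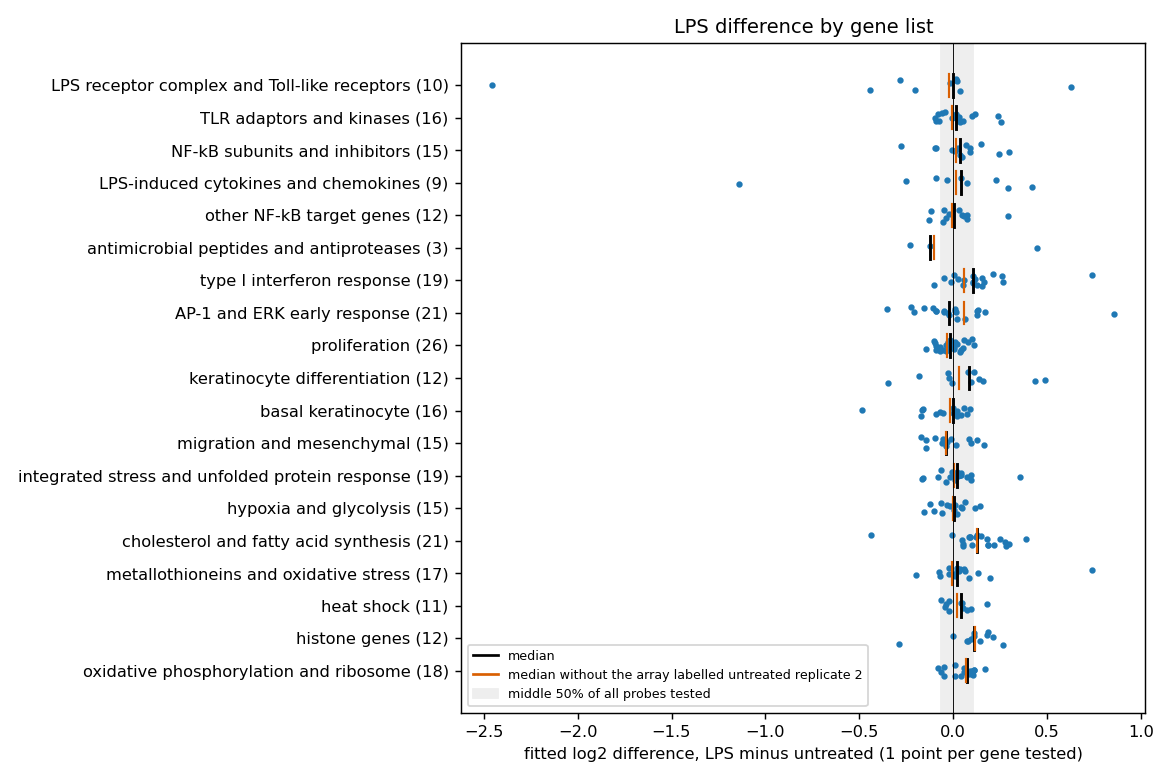
Fitted log2 difference between LPS-treated and untreated SCC13-pUNO cells (x axis) for each tested gene of 19 lists (y axis, number tested in brackets), with the median of the list in black and that without the array labelled untreated replicate 2 in orange. The grey band holds the middle 50% of all probes tested, from -0.062 to 0.11, and the medians of the antimicrobial, cholesterol, histone and interferon lists lie just outside it.

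Stress and housekeeping lists had medians from 0.0054 to 0.11. Of 12 histone genes, 10 were higher with a median of 0.11, beside 54.8% higher and a median of 0.014 over all probes tested. H2AC6 was the highest of that list at 0.26 (95% interval -0.03 to 0.56). MT1M, a metal-binding metallothionein, was well above background on 2 untreated and 4 LPS-treated arrays, at -4.35, -3.76, -4.52 and -2.60 without and -3.41, -3.64, -2.10 and -2.11 with LPS. Its difference was 0.74 (95% interval 0.16 to 1.32, limma adjusted p = 1.00). Of the groups compared, only the LPS-treated one was well above background throughout at MT1M, so this difference is a description. NQO1, a target of NRF2, was the lowest of the oxidative stress list at -0.20 (95% interval -0.41 to 0.01). ERN1, a sensor of unfolded proteins, was well above background on 2 arrays of each group and had a difference of 0.35 (95% interval -0.41 to 1.12), which was 0.90 on slide 1, -0.49 on slide 2 and 0.14 without the array labelled untreated replicate 2. DNAJB9 was lowest in the unfolded protein list at -0.17. In the hypoxia list values went from -0.16 for PFKFB3 to 0.14 for P4HA1. In the heat shock list they went from -0.065 for HSPA8 to 0.18 for HSPA6, and in the list of oxidative phosphorylation and ribosomes from -0.082 for ATP5F1B to 0.17 for RPS18.

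Since no probe passed, the probes with the smallest p were taken among those with a gene symbol that were well above background on all 8 arrays and whose groups did not overlap after correction for the slide. Of all probes tested, 566 (2.5%) had groups that did not overlap, both with and without the array labelled untreated replicate 2. Of these, 328 met the other conditions, 199 higher and 129 lower. The 10 higher and 9 lower ones named here were chosen by these same values, so their differences are a description. The higher ones were TTC28, IL17REL, KRTAP10-3, SCGB1A1, SNX33, HOTAIR, GFRA3, DOK3, ZNF843 and AKAP4, with differences from 0.36 to 1.10. The lower ones were PPP1R14C, SCAND3, CNTRL, TRPM7, FUCA2, BMERB1, UBTF, ZNF407 and IFT70B, with differences from -0.52 to -0.24. All 19 had adjusted p from 0.958 to 1.00 in limma.

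KRTAP10-3, a hair keratin-associated protein, had the largest of these differences. It was at -3.07, -2.95, -3.09 and -3.24 without and at -1.48, -2.85, -2.01 and -1.63 with LPS, with LPS replicate 2 next to the untreated arrays. The change was 2.15-fold (95% interval 1.50 to 3.08, limma adjusted p = 0.958). Without LPS replicate 2 the log2 difference of KRTAP10-3 was 1.48 with a limma adjusted p of 4.25e-04. Leaving out the LPS-treated array closest to the untreated ones had to widen the difference, so this p is a description only. IL17REL, a relative of the interleukin 17 receptors, was at -3.09, -2.60, -2.71 and -2.33 without and -2.20, -2.00, -2.06 and -1.65 with LPS, a change of 1.57-fold (95% interval 1.28 to 1.93). SCGB1A1, a secreted airway protein, lay between -2.50 and -2.13 without and between -1.80 and -1.50 with LPS, a change of 1.69-fold (95% interval 1.30 to 2.21). PPP1R14C, an inhibitor of protein phosphatase 1, lay between -2.32 and -2.09 without and between -2.79 and -2.59 with LPS, a change of 0.755-fold (95% interval 0.662 to 0.861). TRPM7, an ion channel with a kinase domain, lay between -1.48 and -1.28 without and between -2.04 and -1.68 with LPS, a change of 0.705-fold (95% interval 0.574 to 0.866). Of these 19 probes, that of DOK3 alone had a group mean above the 75th percentile of the arrays.

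**Figure D5:**
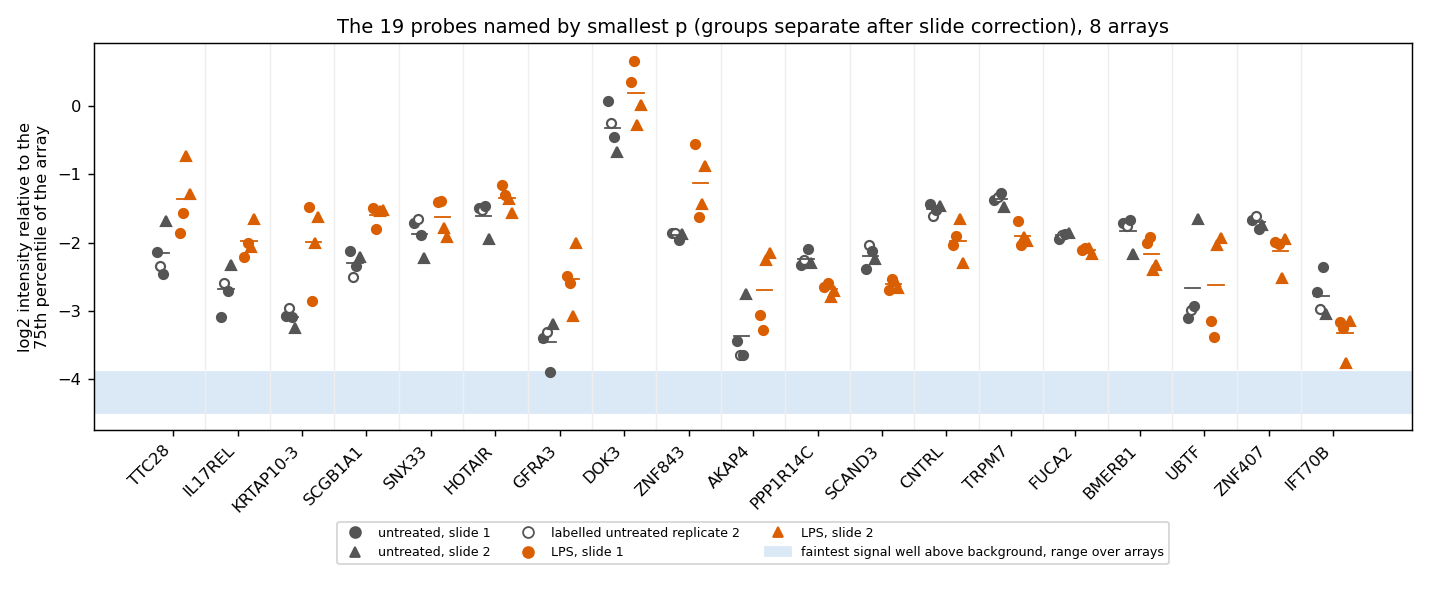
Log2 intensity minus the array's 75th percentile (y axis) on the 8 SCC13-pUNO arrays for the 19 probes named by smallest p (x axis), grey without and orange with LPS, circles for slide 1 and triangles for slide 2, with bars at the group means and the range of the faintest signal well above background shaded. In KRTAP10-3 the LPS-treated array at -2.85 lies beside the untreated arrays, and in UBTF the slides differ more than the groups.

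The response of SCC13-pUNO cells was also set against that of SCC13-TLR4 cells, to ask whether LPS acted differently where TLR4 was transfected. The difference of the 2 responses passed at 0 of 22652 probes (0%), with 453 at an unadjusted p under 0.05 and a smallest adjusted p of 1.00, or 0.119 without the array labelled untreated replicate 2. Neither line had a probe past the threshold for LPS. For NFKBIA the difference between LPS-treated and untreated cells was 0.091 in SCC13-pUNO and -0.077 in SCC13-TLR4 cells, and for TLR5 it was 0.63 and 0.32. For IL6 these values were -0.089 and 0.40, for IL1B 0.29 and -0.15, and for FOS 0.86 and 0.75. For RSAD2 they were 0.74 and -0.50 and for KRTAP10-3 1.10 and 0.20. FOS and RSAD2 had the largest differences of their lists in SCC13-pUNO cells, and KRTAP10-3 was named by its small p there. A smaller value in SCC13-TLR4 cells can follow from that choice alone, so these pairs are a description.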

How the data were processed

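The authors deposited, for each array, the spot intensity that Agilent's Feature Extraction 10.7.3.1 gives after background subtraction and detrending, per the file headers, without normalization between arrays. The series table held the same intensity at every spot. Here each array's 75th percentile over non-control spots was subtracted from the log2 intensity, spots marked as outliers were left out, and spots of a probe were averaged. A RefSeq table gave symbols, by accession, for 28174 of 50599 probes. A probe counted as well above background on an array when at least 0.5 of its kept spots were marked so.

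The model, in limma 3.58.1 (R 4.3.3), used all 15 arrays, 4 group means and the slide, with Benjamini-Hochberg adjustment. For single genes an exact permutation test, two-sided, ran through the 70 splits of the 8 arrays. For a gene with several tested probes the brightest was used. Genes named were the 10 probes with the smallest p in each direction, 8 genes the study names, the tested members of the receptor and cytokine lists, and the extremes of the other lists, with some further members for context. Of these, 2 genes are not reported here. Members and lists were chosen with earlier results of these data known. Alternatives changed the slide term, the arrays in the fit, the background correction, the scaling, the filter, the moderation, the weights and the probes of a gene. Normexp used the median spot signal, as the mean signal was not used here. The fit was tested on simulated data, and permutation p-values are not adjusted over genes. Precision is limited by how many arrays there are.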

Additional observations from a re-analysis of the deposited data

Results flagged for a closer look

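In 16 of 148 groups of 4 arrays looked at, 1 array stood far from the other 3. By chance the rule marks about 1 in 20, but that share is no measure here. Many of the genes were named from these same values, and the groups mix slides. The array labelled untreated replicate 2 was so in ATF3, at 0.01278 against -2.103 to -1.830 on the others, and in TFPI2, at -2.887 against -1.672 to -1.517. Untreated replicate 1 was so in SBSN, at -3.226, and in MMP14, at 1.757, and untreated replicate 3 in ATP5F1B, at 6.854. Untreated replicate 4, the only untreated SCC13-pUNO array of slide 2, was so in HOTAIR at -1.948, BMERB1 at -2.16 and UBTF at -1.653.

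With LPS, replicate 1 stood apart in DHCR7, at 6.286. Replicate 2 did in TLR1 at -2.731 and in SCGB1A1 at -1.803. Replicate 3 did in CXCL12 at -1.955, ZNF407 at -2.52 and IFT70B at -3.758. Replicate 4 did in TLR4, at -4.737 against -6.262 to -6.094 and not well above background on any of the 4, and in MCM6, at 4.134 against 4.290 to 4.317.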

How the results depend on the processing

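The count of probes past an adjusted p of 0.05 in SCC13-pUNO cells was 0 under every alternative other than leaving out single arrays. Leaving out 1 array gave 0 to 1 probes for the LPS response and 0 to 2 for the difference between the lines. For the LPS response the probes were KRTAP10-3 and A_21_P0009252, which has no symbol. KRTAP10-3 passed without LPS replicate 2 (log2 difference 1.48, limma adjusted p = 4.25e-04). A_21_P0009252 passed without untreated replicate 4 (0.79, limma adjusted p = 0.0422). For the difference between the lines they were SNORA70G (6.76) and A_33_P3417222 (9.46), without untreated SCC13-TLR4 replicate 3. Untreated SCC13-TLR4 replicate 2 was missing at both probes, so replicate 1 alone stood for that group. Replicate 1 read -6.514 at SNORA70G and -6.515 at A_33_P3417222, where replicate 3 read 0.7805 and 3.522. The cause of the low readings was not tested. With the replicate block 0 probes passed in either comparison. Deviations of same-numbered arrays correlated at 0.35, 0.31, -0.40 and 0.58, so the numbers were not taken as pairs.

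At an unadjusted p under 0.05 the 873 probes became 561 without the slide factor, 1746 without the filter on dim probes and 397 with probes averaged per gene. The share of probes higher with LPS was 54.8%, and 64.9% without the filter, 59.3% with normexp, 47.9% without the slide factor and 45.6% after quantile normalization. The cause was not tested. Of 74 named genes, 30 changed the sign of their difference under at least 1 of 17 settings and 44 kept it, and of 19 list medians 15 changed sign and 4 kept it. With 4 arrays a group, faint probes have the widest intervals.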
